A study of Mus musculus with 6 samples.

Results

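The 10 genes described here are FOXO transcription factors and genes that FOXO factors are known to regulate, out of 23359 gene symbols measured in mouse bone marrow. They are the factors Foxo1, Foxo3 and Foxo4 and the target genes Irs2, Txnip, Sesn1, Sesn3, Ccng2, Klf2 and Cited2, taken by symbol from the table of the whole series, in which each of them has a single row. Polyadenylated RNA was sequenced from 3 Gab2-/- (NULL A, B and C) and 3 Gab2+/+ (WT A, B and C) bone marrow samples of Mus musculus. The title of the series places the comparison in a study of GAB2 signalling in transformation of blood cells by the BCR-ABL1 fusion kinase. The labels name bone marrow as the tissue and Gab2 as the only difference between the groups. The labels say nothing on strain, age, sex, transduction or culture, or on whether each library came from a separate animal, so a p-value here speaks of the spread among 6 libraries, which may be technical.

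FOXO proteins are forkhead transcription factors that restrain growth, halt the cell cycle and raise stress resistance and, in some cells, cell death. Growth factor signalling through PI3K activates AKT and SGK kinases, which phosphorylate FOXO proteins; the phosphorylated proteins bind 14-3-3 proteins and leave the nucleus, so FOXO activity is set largely at the protein level. GAB2 is a docking adaptor that recruits the regulatory subunit of PI3K and the phosphatase SHP2 to activated receptors and to BCR-ABL1. In early B cells FOXO1 is needed for expression of the recombinase genes and of the IL-7 receptor.

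Values are FPKM, fragments per kilobase of transcript and per 1000000 mapped fragments. Changes are differences of log2(FPKM + 1), NULL minus WT, which understates the change of low genes, and a gene is called changed at a limma adjusted p at or below 0.05 over the 9916 genes that averaged 1 FPKM or more. Gab2 itself was at 0.123, 0.145 and 0.203 FPKM in NULL libraries, against 3.33, 3.10 and 2.43 FPKM in WT libraries. The libraries were B-lineage in character. The 15 B-lineage markers summed to 4316 to 4578 FPKM in NULL libraries and 2726 to 3043 FPKM in WT libraries. Levels within the list were uneven: Igll1 averaged 976 FPKM in NULL and 690 FPKM in WT, but Ms4a1 only 0.101 and 1.77 FPKM. Defining neutrophil markers were at or near 0: 8 of the 10 found, Mpo, Elane and S100a8 among them, were below 0.1 FPKM in every library, which is unlike whole marrow. In such bulk RNA, fewer cells of a type and less RNA per cell cannot be told apart. Estimated depth ran from 23.3 to 68.8 M fragments in NULL libraries and from 17.9 to 54.0 M fragments in WT libraries. The balance of higher and lower calls depended on the scale. On the deposited scale the median change of all tested genes was -0.13, with 2311 genes called higher and 4168 lower in NULL. Rescaling by median of ratios gave 3143 higher and 3242 lower, and quantile normalization 2824 and 3278. A common total gave 2023 and 1003, and a common total without small RNA genes 4239 and 2151. Which scale is right was not tested.

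The FOXO genes were, for the most part, higher in NULL libraries. Of the 9 members above the expression filter, 8 were called higher in NULL, against 23.3% of all tested genes, and 1, Cited2, was called lower, against 42.0% of all tested genes. The median change of these 9 was 0.61, against -0.13 for all tested genes. In the same 8 members every NULL library lay above every WT library, which held for 26.0% of tested genes, and in Cited2 every NULL library lay below every WT library, which held for 45.1%. Klf2, the tenth member, was under the filter. Irs2 passed it only through the NULL libraries, so its passing is tied to its difference. Set against the all-gene median, the changes of the 8 higher members were 0.41 to 0.96 on the deposited scale, and that of Cited2 was -0.74. In mean level the NULL libraries ran from Txnip at 36.5 FPKM through Ccng2 at 26.3 FPKM and Sesn1 at 25.4 FPKM, whose ranges overlapped, down to Klf2 at 0.418 FPKM. In WT libraries Cited2 at 22.4 FPKM led, with Sesn1, Txnip and Ccng2 within its spread. The exact two-sided permutation p was 0.1 for each member, the smallest that 3 libraries against 3 can give.

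**Figure D1:**
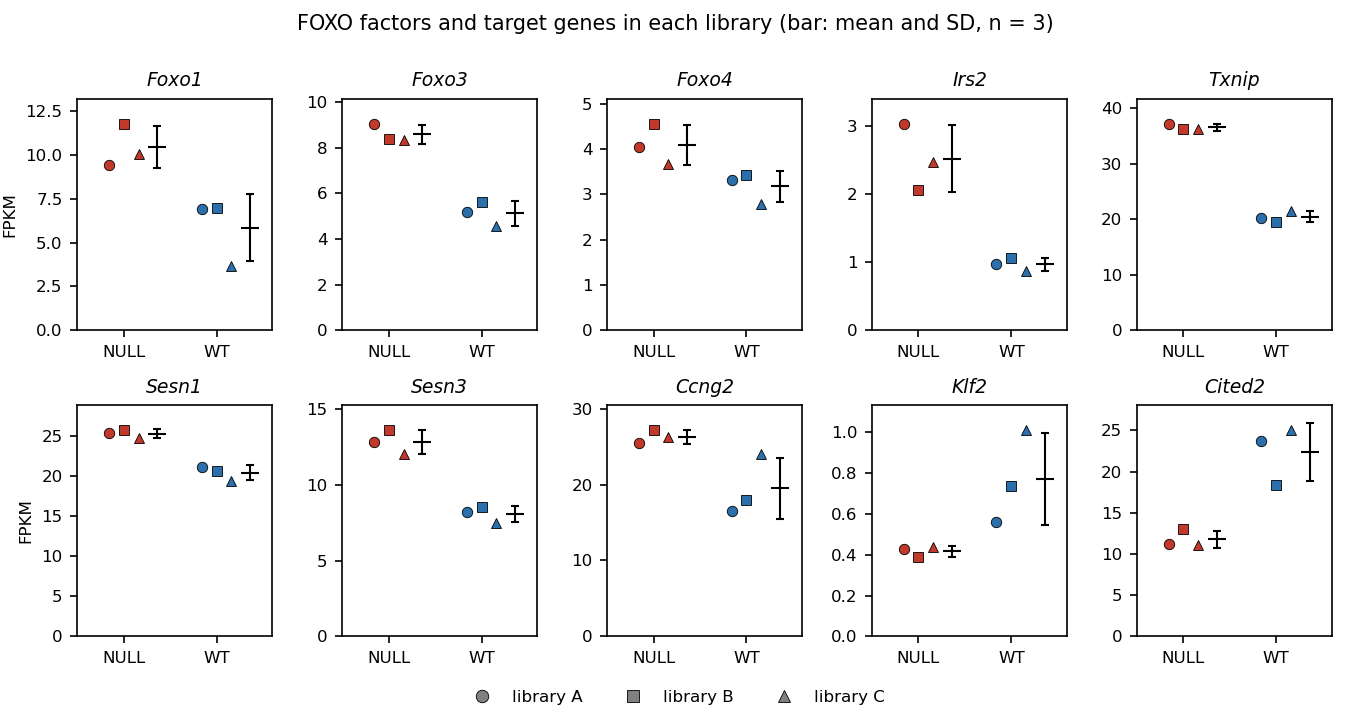
FPKM of each of the 10 members in every library, NULL left and WT right, with symbols for libraries A, B and C and bars for the mean and SD of 3 libraries. The groups do not overlap in any panel, with NULL above WT in 8 panels and below WT for Klf2 and Cited2.

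Foxo1 (chr3:52268336-52353221, plus strand, GRCm38) encodes the FOXO factor with the best known role in early B cells. It was at 9.45, 11.8 and 10.1 FPKM in NULL libraries, against 6.93, 6.98 and 3.64 FPKM in WT libraries. NULL libraries were all higher, and WT C lay well below the other WT libraries. Foxo1 averaged 10.4 ± 1.21 FPKM in NULL and 5.85 ± 1.92 FPKM in WT (SD, n = 3 each), a ratio of 1.78 and a log2 change of 0.78 (SE 0.207, 95% interval 0.30 to 1.26, adjusted p = 0.0118). Without WT C the change was 0.52 (adjusted p = 0.00268).

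Foxo3 (chr10:42181841-42276755, minus strand) encodes the factor best known for quiescence and oxidative stress resistance of blood stem cells. It was at 9.06, 8.38 and 8.34 FPKM in NULL libraries, against 5.18, 5.64 and 4.55 FPKM in WT libraries. The 3 libraries of each genotype lay close together and far from the other group. Foxo3 averaged 8.59 ± 0.406 FPKM in NULL and 5.12 ± 0.547 FPKM in WT, a log2 change of 0.65 (SE 0.0831, adjusted p = 0.000313), with the smallest error of the 3 factors.

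Foxo4 (chrX:101254528-101260873, plus strand), the lowest of the expressed factors, was at 4.06, 4.56 and 3.68 FPKM in NULL libraries and at 3.33, 3.42 and 2.79 FPKM in WT libraries. NULL C lay only just above WT B. The means were 4.10 ± 0.443 FPKM in NULL and 3.18 ± 0.338 FPKM in WT, a log2 change of 0.29 (SE 0.0951, 95% interval 0.065 to 0.51, adjusted p = 0.0294). The call was lost with quantile normalization (adjusted p = 0.0781), with no expression filter (0.0660), with array weights (0.0638) and without NULL A (0.0609), NULL B (0.0998) or WT C (0.0683). The remaining family gene, Foxo6, was listed at 0 in every library.

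FPKM is a level per length, so the factors can be compared within a library. Together they reached 23.1 ± 1.4 FPKM in NULL and 14.2 ± 2.76 FPKM in WT. Foxo1 made up 41.9, 47.7 and 45.6% of that sum in NULL libraries, against 44.9, 43.5 and 33.1% in WT libraries. The groups overlapped, and the difference in mean share, 4.53 percentage points, was within the spread between libraries (exact two-sided permutation p = 0.4); leaving out single libraries moved it between 0.837 and 6.73 points. Foxo3 held 40.1, 33.9 and 37.7% in NULL libraries and 33.5, 35.2 and 41.5% in WT libraries, again overlapping (p = 0.9, same exact test). Foxo4 held 17.7 ± 0.935% in NULL and 22.8 ± 2.31% in WT, with no overlap (p = 0.1, same exact test). Foxo1 and Foxo3 were the main FOXO transcripts of both genotypes; Foxo1 was above Foxo3 in every NULL library and in WT A and B, and below it in WT C. Foxo4 was below both in every library.

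**Figure D2:**
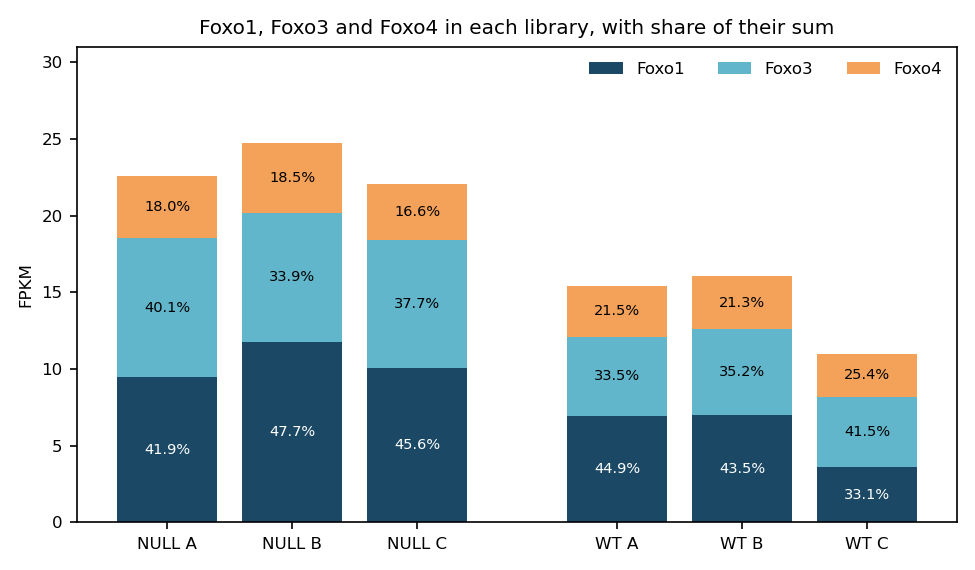
Stacked FPKM of Foxo1, Foxo3 and Foxo4 in each library, NULL left and WT right, with each factor's percent of the sum printed in its segment. The stacks sum to 22.1 to 24.7 FPKM in NULL libraries and 10.98 to 16.04 FPKM in WT libraries, and WT C has the shortest stack, with Foxo1 at 33.1% of it.

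Forkhead factors bind short motifs, so the promoter stretches of targets that hold such a motif are shown ahead of their values. RefSeq promoter windows (build GRCm38.p6, from 250 bases before to 50 after the start site) were found for 9 of the 10 members, with 2 windows for Sesn1. Each was searched on both strands for GTAAACA and for ATAAACA, the forkhead core with either first base, and for CAAAACAA, a form found in insulin-responsive promoters; no motif contains another. The windows of Txnip, Irs2, Ccng2 and Sesn1 held a match, 4 of 10 windows, and those of Foxo1, Foxo3, Sesn3, Klf2, Cited2 and the second Sesn1 start did not. Of 32851 windows of the same length over all genes, 3.65% held GTAAACA, 4.597% ATAAACA, 2.51% CAAAACAA and 10.2% any of them. A match is a description of letters, not of binding, and no match says only that these letters are not in this window. The stretches below run 5′ to 3′ on the gene's own strand with the match in capitals. That of Txnip covers chr3:96557807-96557956 (plus strand), the 150 bases before its start, with the match beginning at -121. That of Irs2 covers the 150 bases before its RefSeq start, which lies upstream of the start of the GENCODE gene at 11008458. It runs over chr8:11008930-11009079 (minus strand), with the match on the opposite strand from -38. Those of Ccng2, at chr5:93267546-93267575 with the match from -16, and of Sesn1, at chr10:41810585-41810614 with the match on the opposite strand from 23 after the start, are 30 bases each and lie inside the annotated gene.
Txnip: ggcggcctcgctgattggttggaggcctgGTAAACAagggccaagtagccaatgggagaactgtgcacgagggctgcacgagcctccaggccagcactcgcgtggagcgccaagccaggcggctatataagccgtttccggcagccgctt
Irs2: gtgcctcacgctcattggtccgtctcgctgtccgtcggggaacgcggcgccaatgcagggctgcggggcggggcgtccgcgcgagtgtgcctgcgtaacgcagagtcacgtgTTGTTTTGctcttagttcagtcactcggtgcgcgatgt
Ccng2: cgtcgcagactCAAAACAAaaacaaggggt
Sesn1: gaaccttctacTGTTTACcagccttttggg

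All member windows were rich in G and C, at 61.3 to 75.0% against a median of 52.7% over all windows, and held 21 to 41 CpG pairs against a median of 7.

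Irs2 (chr8:10984681-11008458, minus strand) encodes insulin receptor substrate 2, an adaptor that carries insulin, IGF1 and cytokine receptor signals to PI3K and whose gene FOXO factors induce when that signalling is low. It was at 3.03, 2.06 and 2.47 FPKM in NULL libraries, against 0.973, 1.06 and 0.864 FPKM in WT libraries. NULL A was the highest, and even NULL B was above every WT library by a wide margin. The ratio of means was 2.61, the largest among the members, with a log2 change of 0.83 (SE 0.112, adjusted p = 0.000403). Its relative Irs1 averaged 1.58 FPKM in NULL and 0.408 FPKM in WT but had a mean below the filter and was not tested. Irs2 made up 61.1 ± 7.30% of the summed Irs1 and Irs2 in NULL and 70.6 ± 5.71% in WT.

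Txnip (chr3:96557957-96561883, plus strand) encodes thioredoxin-interacting protein, an arrestin-like protein that inhibits thioredoxin and lowers glucose uptake. It was the most abundant member in NULL libraries, at 37.2, 36.2 and 36.2 FPKM in NULL libraries, against 20.3, 19.5 and 21.5 FPKM in WT libraries. Both groups were tight, and the gap between them was many times their spread. The log2 change was 0.81 (SE 0.0614, adjusted p = 3.84e-05), a ratio of 1.79, and the call held in every alternative fit. An antisense gene, Gm15441, overlaps 19.4% of the exonic bases of Txnip; it was at 0.216 to 0.402 FPKM in NULL libraries and 0.109 to 0.183 FPKM in WT libraries, far below Txnip, and no source used here says whether fragments were assigned by strand. The like overlaps of Foxo1 and Irs2 cover 7.8% and 2.6% of their exonic bases.

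Of the other alpha-arrestin genes, relatives of Txnip, Arrdc3 averaged 15.6 ± 1.43 FPKM in NULL and 6.43 ± 1.0 FPKM in WT (log2 change 1.16, adjusted p = 9.59e-05). Arrdc1 averaged 15.2 ± 1.17 FPKM in NULL and 9.83 ± 1.43 FPKM in WT (log2 change 0.59). Arrdc2 was also called higher, and Arrdc4, which responds to glucose together with Txnip, was at or near 0 in all 6 libraries.

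The sestrins act through GATOR proteins to restrain mTORC1, and limit oxidative damage. Sesn3 (chr9:14275067-14333101, plus strand), the sestrin most tied to FOXO factors, was at 12.8, 13.6 and 12.0 FPKM in NULL libraries, against 8.22, 8.5 and 7.47 FPKM in WT libraries. All NULL libraries were well above all WT libraries, a log2 change of 0.61 (SE 0.0749, adjusted p = 0.000266). Sesn1 (chr10:41809935-41908424, plus strand), a target of p53 as well as of FOXO factors, was at 25.5, 25.8 and 24.8 FPKM in NULL libraries, against 21.2, 20.7 and 19.4 FPKM in WT libraries. Its rise was smaller, 0.30 (SE 0.0613, adjusted p = 0.00344), but exceeded the narrow spread of both groups; on a common total it was 0.57 and no longer called (adjusted p = 0.0878). Sesn2, which belongs to the family but not to the 10 members, averaged 2.27 FPKM in NULL and 1.30 FPKM in WT and was called higher (log2 change 0.50, adjusted p = 0.00341). Sesn1 thus remained the most abundant sestrin, while Sesn3 took 31.7 ± 1.04% of the summed sestrin FPKM in NULL and 27.0 ± 0.790% in WT, with no overlap between groups. Sesn1 and Foxo3 are neighbours on chromosome 10, with 273416 bases between their annotated ends.

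Ccng2 (chr5:93267257-93276231, plus strand) encodes cyclin G2, an unconventional cyclin that rises in quiescent cells and slows the cell cycle. It was at 25.4, 27.2 and 26.3 FPKM in NULL libraries, against 16.5, 18.0 and 24.0 FPKM in WT libraries. WT C stood apart from the other WT libraries and came close to the NULL libraries. The means were 26.3 ± 0.884 FPKM in NULL and 19.5 ± 3.97 FPKM in WT, a log2 change of 0.43 (SE 0.127, adjusted p = 0.0185). The call was lost without NULL B (adjusted p = 0.0577), NULL C (0.0513), WT A (0.0567) or WT B (0.0632), and without WT C the change was 0.58 (adjusted p = 0.000442). Its relative Ccng1, a p53 target, averaged 91.1 FPKM in NULL and 105 FPKM in WT and was not called (adjusted p = 0.119).

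Klf2 and Cited2 went the other way. Klf2 (chr8:72319033-72321656, plus strand) encodes the lung Krüppel-like factor, which FOXO1 induces in lymphocytes and which keeps them quiescent and circulating. It was at 0.428, 0.388 and 0.439 FPKM in NULL libraries, against 0.563, 0.736 and 1.01 FPKM in WT libraries. The NULL libraries were close together and below all WT libraries, and WT C was the highest. These values correspond to roughly 15.4 to 51.6 fragments per library, so the level was low in both genotypes. With the filter lowered to 0.1 FPKM, Klf2 was called lower (log2 change -0.31, SE 0.0929, adjusted p = 0.0205), as were 36.0% of the 12277 genes then tested. At that filter the change was negative in all 12 fits, but the call was lost with a common total (adjusted p = 0.135), with a common total without small RNA genes (0.0708) and without NULL B (0.0642).

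Cited2 (chr10:17723218-17725674, plus strand) encodes a transcriptional cofactor that competes with HIF1A for CBP and p300 and is itself induced by hypoxia and cytokines as well as by FOXO factors. It was at 11.2, 13.0 and 11.1 FPKM in NULL libraries, against 23.7, 18.4 and 25.0 FPKM in WT libraries. The highest NULL library was below the lowest WT library, and WT C was again the highest. The means were 11.8 ± 1.06 FPKM in NULL and 22.4 ± 3.51 FPKM in WT, a ratio of 0.526 and a log2 change of -0.86 (SE 0.120, adjusted p = 0.000473). With a common total it was -0.60 and not called (adjusted p = 0.0606).

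**Figure D3:**
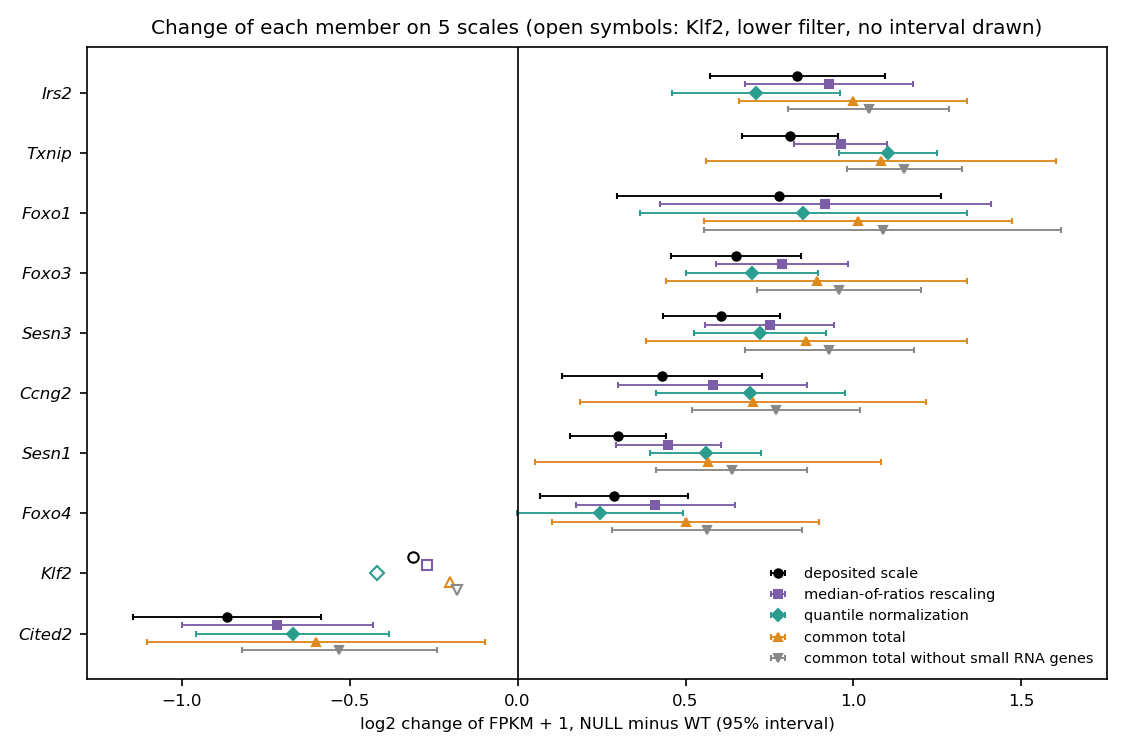
Log2 change of FPKM + 1, NULL minus WT, of each member on the deposited scale and after 4 rescalings, with 95% intervals as bars. The 8 higher members stay to the right of 0 and Klf2 and Cited2 to the left on all 5 scales, with the interval of Foxo4 reaching 0 under quantile normalization; Klf2 is drawn from the fit with the lower filter, without intervals.

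Other Krüppel-like factors moved in both directions. Klf3, a transcriptional repressor, averaged 4.54 ± 0.161 FPKM in NULL and 0.830 ± 0.0221 FPKM in WT (log2 change 1.6, adjusted p = 8.68e-06), and passed the filter only through NULL libraries, as Irs2 did. Klf6 averaged 18.4 ± 2.16 FPKM in NULL and 8.82 ± 0.669 FPKM in WT (log2 change 0.98). Klf16 and Klf10 were called lower, at -0.48 and -0.43, each keeping the call under 2 of 4 rescalings. Over all 21 listed relatives of the members, 14 were tested, 7 of them called higher and 3 lower, with a median of 0.29, against 23.3% and 42.0% of all tested genes; the third lower gene, the cyclin relative Ccni, changed sign under 2 rescalings.

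The kinases and phosphatases upstream of FOXO proteins had calls in both directions on the deposited scale, and more higher than lower calls after each of the 4 rescalings. Of 31 listed genes 30 were tested, 11 of them called higher and 9 lower, with a median of 0.098, where 23.3% of all tested genes were called higher and 42.0% lower. The split was 15 higher and 3 lower by median of ratios, where all genes gave 3143 and 3242, and 18 and 4 by quantile normalization, where all genes gave 2824 and 3278. It was 9 and 0 with a common total, where all genes gave 2023 and 1003, and 21 and 2 with a common total without small RNA genes, where all genes gave 4239 and 2151. Pik3ip1, a transmembrane inhibitor of PI3K and itself a FOXO target, averaged 18.7 ± 2.09 FPKM in NULL and 5.88 ± 0.176 FPKM in WT (log2 change 1.52, adjusted p = 1.65e-05). Sgk1, an AKT-like kinase that phosphorylates FOXO proteins, averaged 5.04 ± 0.473 FPKM in NULL and 1.22 ± 0.586 FPKM in WT (1.48, adjusted p = 0.000269). The lipid phosphatase gene Inppl1 (SHIP2) and the leukocyte PI3K catalytic gene Pik3cd each changed by 1.07. Among the lower genes were Cdk2, a kinase that can phosphorylate FOXO1 (25.3 ± 2.82 FPKM in NULL and 41.6 ± 0.797 FPKM in WT, -0.70), and Ppp2ca, a catalytic subunit of the phosphatase PP2A (-0.62, called under 2 of 4 rescalings). Pik3r1, a regulatory subunit gene of PI3K (0.61), and Mtor (0.73) were also called higher on the deposited scale, and Mapkap1 (-0.17) and Mlst8 (-0.25) lower. The genes Pik3ca, Pdpk1, Akt1 and Akt2 were not called on that scale. The log2 change was -0.10 for Akt1 and -0.098 for Akt2. Both were positive after each of the 4 rescalings, and were called higher with a common total without small RNA genes, 1 of them also with quantile normalization, so no direction is given for them.

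Genes that carry FOXO proteins out of the nucleus, degrade them or act as their cofactors were mostly lower on the deposited scale. All 22 were tested, 6 called higher and 15 lower, with a median of -0.48, where 23.3% of all tested genes were called higher and 42.0% lower. By median of ratios 15 were lower, where 3242 of all 9916 tested genes were, and by quantile normalization 10, where 3278 were. With a common total 5 were higher and 2 lower, where all genes gave 2023 and 1003. With a common total without small RNA genes 7 were higher and 7 lower, where all genes gave 4239 and 2151. All 6 genes of 14-3-3 proteins, which hold phosphorylated FOXO proteins in the cytosol, were called lower on the deposited scale and by median of ratios, but 3 of them under quantile normalization, where 1 turned positive, 0 with a common total and 1 with a common total without small RNA genes. Ywhae was the most changed, at 36.0 ± 1.52 FPKM in NULL and 63.5 ± 7.54 FPKM in WT (-0.79, adjusted p = 0.000233). The export genes Ran (-1.31) and Xpo1 (-0.85) and the arginine methyltransferase gene Prmt1 (-0.94), whose product methylates FOXO1, were lower too. The deacetylase gene Sirt2 (0.63) and the acetyltransferase genes Crebbp (0.57) and Kat2b (0.50) were higher, as was Foxk1 (0.40), which encodes another forkhead factor, and these 4 were called under all 4 rescalings.

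Further known FOXO targets were mostly higher in NULL, with the largest changes among lymphoid genes. The target lists do not separate genes that FOXO factors induce from genes that they repress, so the counts give no direction of FOXO action. Of 12 lymphoid targets 10 were tested, 7 called higher and 2 lower, with a median of 0.89, where 23.3% of all tested genes were called higher and 42.0% lower. Il7r, which encodes the IL-7 receptor chain, was at 66.0, 85.1 and 76.3 FPKM in NULL libraries, against 13.0, 13.9 and 4.92 FPKM in WT libraries (log2 change 2.83, adjusted p = 0.000196). Rag1, a subunit of the V(D)J recombinase, was at 6.93, 7.01 and 7.11 FPKM in NULL libraries, against 1.25, 1.55 and 0.255 FPKM in WT libraries (2.05, adjusted p = 0.000196). In both genes WT C was the lowest WT library, as it was for Foxo1, for 7 of the 10 tested lymphoid targets and for 39.7% of all tested genes. Blnk, an adaptor of the pre-B-cell receptor, rose by 1.26 and S1pr1, which guides egress from tissues and is a KLF2 target in T cells, by 1.54. Ikzf1 and Cd52 were called lower, at -0.58 and -0.52, Cd52 under 1 of 4 rescalings. The B-lineage markers differed as well: 14 of the 15 were tested, 11 called higher, Cd79a, Vpreb1 and Dntt among them, and 2 called lower, Cd22 among them, and Pax5 was not called. The lymphoid targets Rag1, Rag2, Blnk and Ebf1 are themselves on that marker list. The part of such a difference in the changes of the FOXO genes was not tested.

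Of 15 targets that act on the cell cycle and cell death, 13 were tested, 9 called higher and 0 lower, with a median of 0.60, against the same all-gene shares of 23.3% and 42.0%. By limma at an unadjusted threshold of 0.05 the count of lower genes was also 0. Btg1, an antiproliferative gene, averaged 37.6 ± 4.33 FPKM in NULL and 11.6 ± 1.39 FPKM in WT (log2 change 1.61). The cell cycle inhibitor gene Cdkn1a (p21) averaged 23.5 ± 0.753 FPKM in NULL and 8.98 ± 2.0 FPKM in WT (1.32). The death gene Bbc3 (PUMA) averaged 2.23 ± 0.621 FPKM in NULL and 0.690 ± 0.0802 FPKM in WT (0.92), and passed the filter only through NULL libraries. Cdkn1a, Bbc3 and Trp53inp1 (1.38) are also p53 targets.

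Of 27 targets in metabolism, stress defence and autophagy, 20 were tested, 12 called higher and 4 lower, with a median of 0.49, again against 23.3% and 42.0% of all tested genes. Higher genes included the ubiquitin ligase gene Fbxo32 (atrogin-1), at 2.52 ± 0.290 FPKM in NULL and 0.539 ± 0.0403 FPKM in WT (1.19), which passed the filter only through NULL libraries, the mitophagy kinase gene Pink1 (1.18) and the autophagy gene Gabarapl1 (0.68). The lower genes were the mitochondrial antioxidant genes Prdx3 (-0.97) and Sod2 (-0.59), the hypoxia-responsive mitophagy gene Bnip3 (-1.48) and the translation repressor gene Eif4ebp1 (-0.54). Bnip3 averaged 22.4 ± 1.72 FPKM in NULL and a widely spread 74.0 ± 51.1 FPKM in WT. It was still called lower without WT C, and is also counted in the hypoxia list below. Eif4ebp1 was not called without WT C or under any of the 4 rescalings. The target lists are described by counts and medians beside the all-gene median of -0.13, and no list was tested as a set. On a common total 2023 of all 9916 tested genes were called higher and 1003 lower. There, no relative of the members and no lymphoid target was called lower, and 2 of the 20 tested metabolic targets were, near the all-gene share. The calls of higher genes in the 3 target lists were 7, 9 and 11, of 10, 13 and 20 tested.

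**Figure D4:**
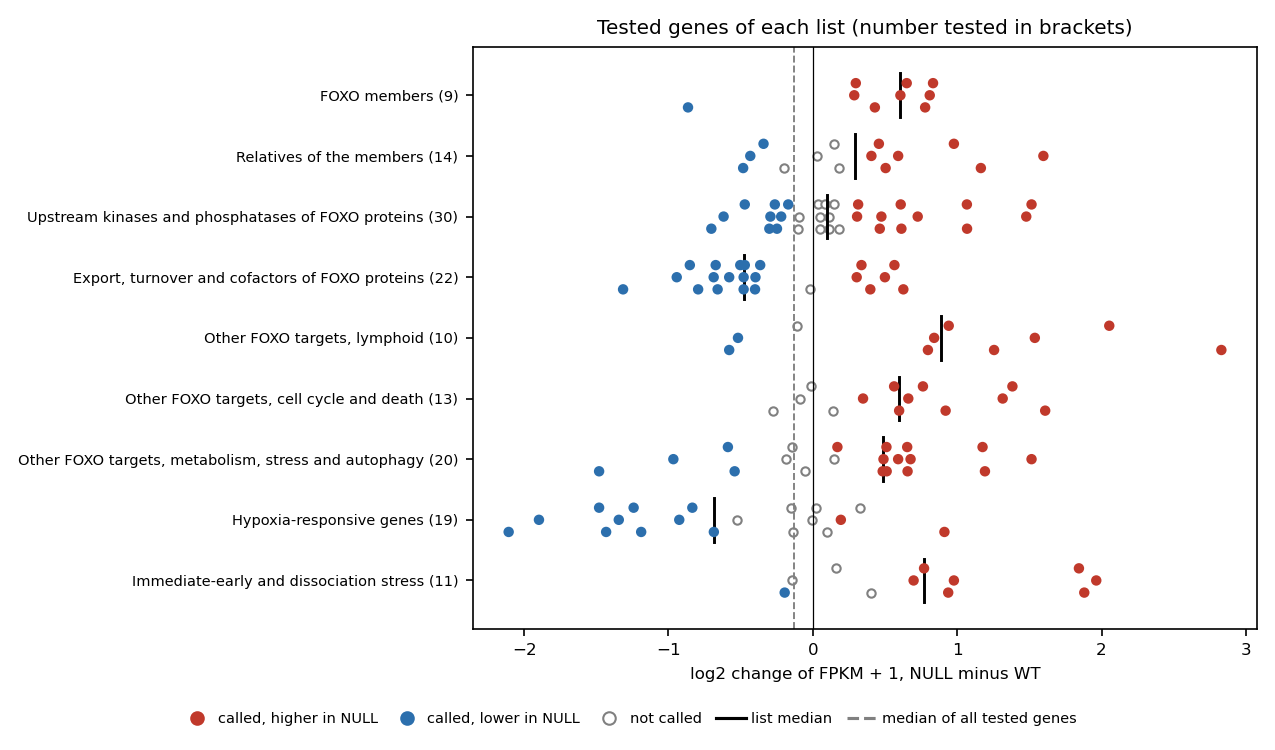
Log2 change of FPKM + 1, NULL minus WT, of each tested gene of the members and of 8 related lists, with filled points for called genes, a black bar for the list median and a dashed line at the median of all tested genes, -0.13. The members and the 3 lists of other FOXO targets have medians of 0.49 to 0.89, and the immediate-early list has a median of 0.77. The relatives and the upstream list have medians of 0.29 and 0.098, and the export list and the hypoxia list have medians of -0.48 and -0.69.

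Other gene lists also differed between the genotypes. The 19 hypoxia-responsive genes summed to 528, 469 and 520 FPKM in NULL libraries, against 1131, 1184 and 2324 FPKM in WT libraries. WT C was the highest WT library in 18 of them and in 42.3% of all tested genes. Of these 19 genes 2 were called higher and 10 lower, where 42.0% of all tested genes were called lower; without WT C the counts were 4 and 10. The largest falls were in the glycolytic genes Ldha (-2.11) and Pgk1 (-1.90). WT C was also the highest WT library for Cited2, Klf2, Ccng2 and Txnip and the lowest for Foxo1, Foxo3, Foxo4, Irs2, Sesn1 and Sesn3; it was the lowest for 6 of the 9 tested members and for 39.7% of all tested genes. Without WT C, 7 of the 9 members were called higher, Foxo4 being lost, and 1 lower. The 18 immediate-early and dissociation stress genes, which can rise while tissue is handled, summed to 105 ± 3.02 FPKM in NULL and 57.5 ± 0.851 FPKM in WT. Of 11 tested, 7 were called higher and 1 lower, where 23.3% of all tested genes were called higher and 42.0% lower. Their median change was 0.77, against 0.61 for the members. Jun (1.88) and Btg2 (1.96) were among the higher genes, 3 of which had WT means under the filter. The lower gene, Dnajb1, changed sign under 3 of 4 rescalings. The part of these lists in the changes of the FOXO genes was not tested.

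Markers of other cells were low but differed. The 9 monocyte and macrophage markers summed to 7.77 to 8.87 FPKM in NULL libraries and 1.41 to 1.53 FPKM in WT libraries, mostly Itgam and Lyz2, with Cd14 and Emr1 below 0.1 FPKM in every library. The 9 erythroid markers summed to 0.222 to 0.355 FPKM in NULL libraries and 7.51 to 67.5 FPKM in WT libraries, mostly Hbb-b1, with 6 of the 9, Klf1 and Slc4a1 among them, below 0.1 FPKM in every library. The 8 stromal and endothelial markers summed to 24.7 to 25.6 FPKM in NULL libraries and 10.6 to 11.6 FPKM in WT libraries, almost all Pecam1, which B-lineage cells can also express, while Col1a1, Cxcl12 and Cdh5 were below 0.1 FPKM. Megakaryocyte markers summed to at most 1.75 FPKM in NULL libraries and 0.612 FPKM in WT libraries, mast cell and basophil markers to at most 2.01 FPKM in NULL libraries and 0.00591 FPKM in WT libraries, and dendritic markers to at most 0.601 FPKM in NULL libraries and 0.343 FPKM in WT libraries. T and NK cell markers reached at most 0.505 FPKM in NULL libraries and 0.255 FPKM in WT libraries, with Cd3e and Cd8a below 0.1 FPKM in every library. The part of these cells in the member results was not tested.

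**Figure D5:**
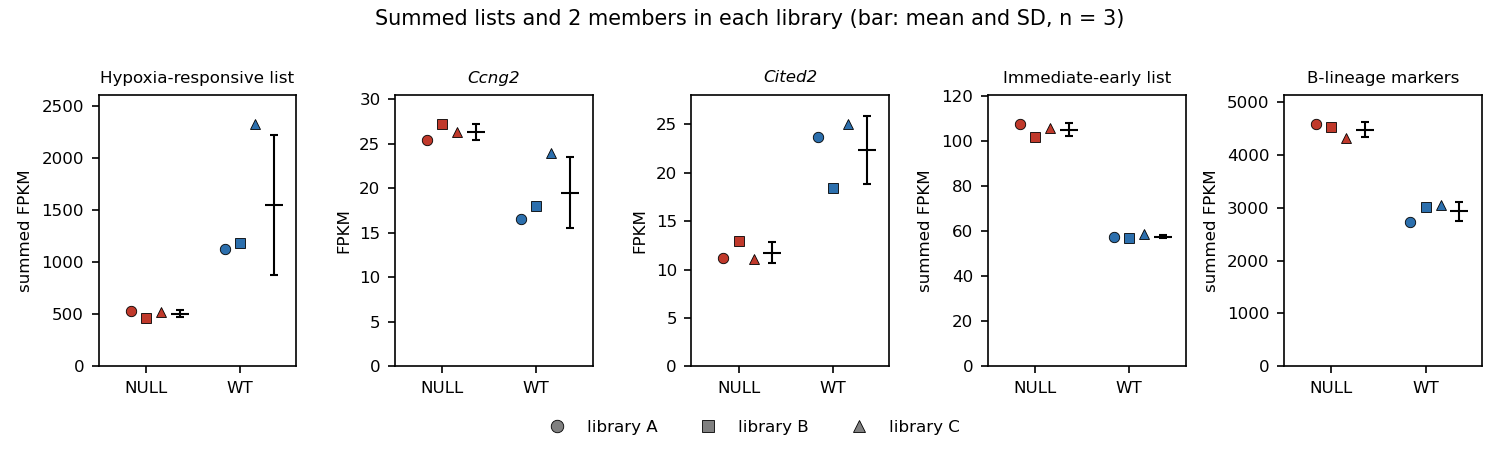
Summed FPKM of the hypoxia-responsive, immediate-early and B-lineage lists and FPKM of Ccng2 and Cited2 in every library, NULL left and WT right, with bars for the mean and SD of 3 libraries. WT C has the highest hypoxia sum, 2324 FPKM, and is also the highest WT library for Ccng2 and Cited2, while the immediate-early sums of the WT libraries lie between 56.9 and 58.5 FPKM.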

How the data were processed

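Per the labels' protocols, polyadenylated RNA was made into stranded libraries and sequenced as paired ends. The authors deposited 1 FPKM value per gene and library, made with Bowtie and Cufflinks on mm10 (GRCm38), per the submitters' processing notes; no source used here gives versions, annotation or strand setting. FPKM are not counts, so log2(FPKM + 1) of genes that averaged 1 FPKM or more was tested with limma 3.58.1 (R 4.3.3), with a variance trend, two-sided, with Benjamini-Hochberg adjustment over 9916 genes at 0.05, and checked on simulated data. Single values were compared by an exact permutation test over libraries. Repeated symbols kept the row with the highest mean. Depth was estimated from the spacing of low FPKM values and is approximate. Positions are from GENCODE and promoters from RefSeq. The planned description of FOXO proteins was not made. From each list, up to 4 called genes per direction with the largest change could be named. Others named (Sesn2, Ccng1, Irs1, Arrdc2, Arrdc4, Akt1, Akt2, Pik3ca, Pdpk1, Pik3r1, Mtor, Mapkap1, Mlst8, 14-3-3 genes, B-lineage markers) were chosen after their values were seen. Members and lists were chosen with earlier results of these data known. Alternatives were pseudocounts of 0.1 and 5, other filters, 4 rescalings, other moderation, weights, threshold and row sums, a replicate block and leaving out each library; those for Klf2 at the lower filter were added after seeing the data.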

Additional observations from a re-analysis of the deposited data

How the results depend on the processing

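Every member kept its direction in each alternative that tested it. The 8 higher members became 5 at an adjusted p of 0.01, losing Foxo1, Foxo4 and Ccng2, and 6 to 7 when single libraries were left out. They became 7 with quantile normalization, no filter or array weights, each losing Foxo4, and 7 with a common total, losing Sesn1. With a mean of at least 5 FPKM 6 were called higher, of 7 tested. Members called lower were 2 with a mean of at least 0.1 FPKM or no filter, which admit Klf2, 0 with a common total and 1 without any single library. Over all genes, 1364 were called higher with a mean of at least 5 FPKM, where fewer genes are tested, 1003 lower with a common total, and 4239 higher and 2151 lower with a common total without small RNA genes; the cause was not tested for the last 2 settings. Leaving out single libraries gave 2013 to 2415 higher and 3750 to 4073 lower, and a Foxo1 share difference of 0.837 to 6.73 points, against 2.42 over Foxo1 and Foxo3 only. With a replicate block on the letters there were 2050 higher and 3794 lower, and the members stayed at 8 and 1. No label says that the letters mark pairs, so they were not taken as pairs. Same-letter libraries correlated at 0.0735, 0.355 and 0.133 in their deviations from group means. Each library correlated best with its own letter, a hint of pairing from the data and not from the design. Depth limits Klf2 most. Small RNA genes took 5.23 to 30.4% of summed FPKM, so the common total varied with their share. Leaving them out did not restore the counts of the deposited scale, 2311 higher and 4168 lower.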
